A study of Homo sapiens with 2 samples.

Results

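Peaks of Flag-tagged YAP-5SA were examined at the gene of the epidermal growth factor receptor (EGFR), at those of 7 of its family's ligands (EPGN, EREG, AREG, BTC, HBEGF, TGFA and NRG1) and at ERRFI1, the gene of a feedback inhibitor of the receptor. A peak belonged to a gene when its summit lay in an hg19 window set around it. The EGFR window was 55.03 to 55.33 Mb of chromosome 7. On chromosome 4, EPGN, EREG and AREG shared the window 75.12 to 75.37 Mb, and BTC had 75.62 to 75.77 Mb. HBEGF had 139.66 to 139.78 Mb of chromosome 5, TGFA had 70.62 to 70.84 Mb of chromosome 2, NRG1 had 31.44 to 32.68 Mb of chromosome 8, and ERRFI1 had 8.02 to 8.14 Mb of chromosome 1. The 7 windows covered 2.40 Mb and held 15 of the 9393 peaks in the list. Of the 7 windows, 5 held at least 1 peak, and those of BTC and HBEGF held none.

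The samples were 1 chromatin immunoprecipitation (ChIP) library, collected on Flag-M2 beads, and 1 library of input DNA. Both came from MCF10A, a human mammary epithelial line that one label calls non-transformed and another calls a breast cancer line. YAP is the co-activator that Hippo signalling holds back, and YAP-5SA is an active mutant of it, in which serines phosphorylated by the LATS kinases are changed to alanine. The promoter that drove the Flag-tagged protein and the number of clones are not stated in the labels. The cells grew in medium with horse serum, insulin, hydrocortisone, cholera toxin and EGF at 20 ng/ml, so a ligand of the receptor was present throughout. The peak list comes from the ChIP library, and reads of the input were not analysed here. With 1 library there is no replicate check and no test, and the read depth is unknown.

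EGFR is a receptor tyrosine kinase of the ERBB family. Its ligands are made as membrane-anchored precursors and are released by cleavage at the cell surface. EPGN, EREG, AREG, BTC, HBEGF and TGFA bind EGFR itself, whereas NRG1 binds the related receptors ERBB3 and ERBB4. ERRFI1, also called MIG6, binds the kinase domain of the activated receptor and blocks it. YAP does not bind DNA itself and is brought to it mainly by the TEAD proteins, and AREG is known as a YAP target in mammary epithelial cells. Expression was not measured here, and a peak in a window does not show which gene, if any, it acts on.

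The letters under the peaks could not be read, since no hg19 genome was used here. The promoters of the genes are therefore given as RefSeq lists them in GRCh38.p14, from 250 bases before to 50 bases after a gene's start. The table held 10 promoters for 8 of the 9 genes, all but NRG1. They were searched on both strands for GGAATG, the core letters bound by TEAD, and for TGANTCA, the letters bound by AP-1. GGAATG or its reverse complement CATTCC stood in 2 of the 10, against 14.0% of the 35116 promoters in the table. TGANTCA stood in 1 of the 10, against 7.71% of all. The 2 promoters that hold the TEAD letters are shown. Capitals mark the matched letters, and no 2 matches overlap. The upper one is the downstream of the 2 EGFR promoters in the table (chr7:55109589-55109888, plus strand) and the lower one is that of EREG (chr4:74364895-74365194, plus strand). The upstream EGFR promoter (chr7:55018767-55019066, plus strand), not shown, held neither the TEAD nor the AP-1 letters.
EGFR, downstream promoter: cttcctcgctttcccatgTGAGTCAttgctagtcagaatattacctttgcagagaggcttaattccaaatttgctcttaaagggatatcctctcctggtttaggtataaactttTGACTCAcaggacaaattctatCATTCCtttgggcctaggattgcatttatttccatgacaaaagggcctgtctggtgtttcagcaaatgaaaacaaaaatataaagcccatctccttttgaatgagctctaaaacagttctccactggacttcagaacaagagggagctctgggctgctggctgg
EREG promoter: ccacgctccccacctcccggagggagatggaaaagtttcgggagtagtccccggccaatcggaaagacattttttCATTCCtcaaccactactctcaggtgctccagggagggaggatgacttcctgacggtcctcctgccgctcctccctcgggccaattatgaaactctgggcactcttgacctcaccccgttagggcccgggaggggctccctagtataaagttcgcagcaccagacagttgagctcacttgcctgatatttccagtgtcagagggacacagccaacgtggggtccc
In the EGFR sequence, CATTCC began 114 bases before the listed start, and the AP-1 letters began 232 and 136 bases before it. In the EREG sequence, CATTCC began 175 bases before the start. A match of this kind is a description of letters, and the positions belong to another build than the peaks, so it was not determined whether a peak covers either promoter.

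With the windows as set, the receptor gene had the most peaks by count and the tallest, and both rankings rest on 1 peak near the window's edge. EGFR held 5 peaks in 300 kb, or 16.7 per Mb. The windows differ in length, and per Mb EGFR did not lead, since ERRFI1 also had 16.7, from 2 peaks in 120 kb. Of the 9695 tiles of 300 kb, laid side by side along the chromosomes, 2.54% held at least 5. That share counts the peak near the edge, and the tiles take in stretches without genes. The tallest of the 5 EGFR peaks, at positions 55034825 to 55035678, reached a height of 71. The height is the authors' whole-number score at the summit, whose unit is not given, and it was used only to rank peaks within the list. Of the 9393 peaks, 24 were at least that tall, this one included, or 0.256%, and 3 of these were on chromosome 7. A peak as tall was present in 0.237% of the tiles of 300 kb.

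The tall EGFR peak stood 5.264 kb inside the low-coordinate edge of its window, and its nearest neighbour was 76.4 kb away. With each window narrowed by 20 kb on both sides it was lost, and EGFR then held 4 peaks, as many as NRG1, with a greatest height of 26, below the 28 of TGFA. It was 854 bp wide, a width that 10.7% of the list reached or passed. The other 4 EGFR peaks were of ordinary or low height. Those at 55111273 to 55111870 and 55119724 to 55120298 had heights of 20 and 22, and their summits were 8.38 kb apart. Beyond them, the peak from 55141389 to 55142152 had a height of 16, which 92.1% of the list reached or passed. The fifth, from 55200346 to 55201006, had a height of 26, against a median of 24 over the whole list.

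The 5 EGFR summits spanned 165 kb and outnumbered those in the flanking megabases. The megabase before the window held 1 peak and the megabase after it held 3, none taller than 26. The nearest summits outside lay 131 kb before and 98.3 kb after the window, with heights of 26 and 13. In RefSeq's order of protein-coding genes, EGFR lies between SEC61G and LANCL2.

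**Figure D1:**
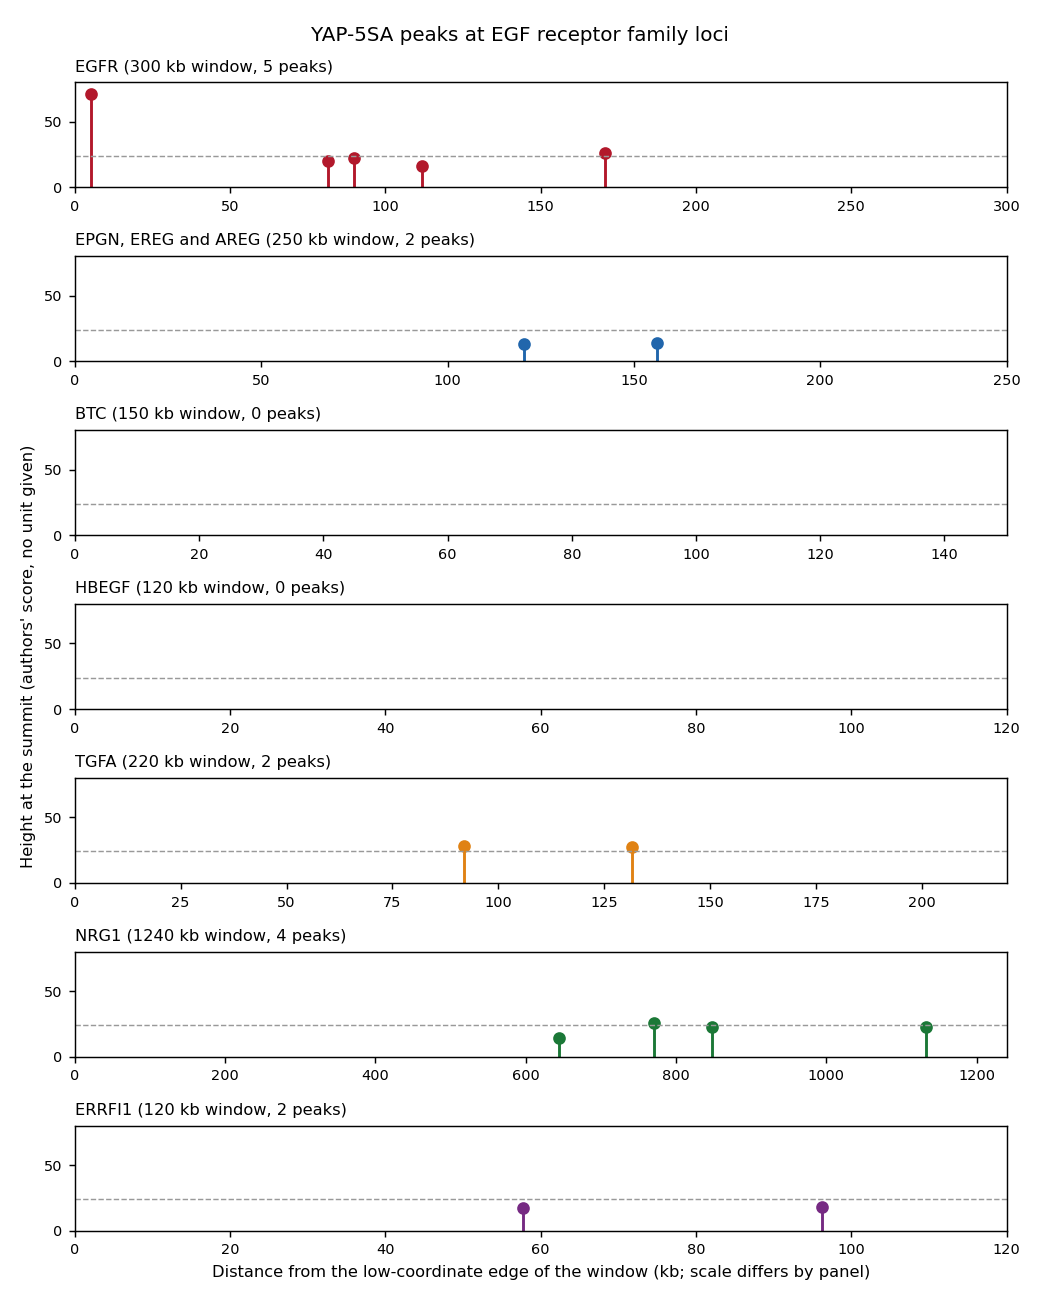
Height at the summit (authors' score, no unit given) of every peak in the 7 windows, against distance from the low-coordinate edge of each window in kb, with the dashed line at the whole-list median of 24. The EGFR peak of height 71 stands alone above 40, and the BTC and HBEGF panels are empty.

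The clustered ligands EPGN, EREG and AREG, which follow each other on chromosome 4, had 2 low peaks between them. The peak from 75240142 to 75240761 had a height of 13 and the one from 75275876 to 75276489 had a height of 14. These were the lowest heights of the 15 peaks, shared with 1 NRG1 peak at 14. They were also near the foot of the whole list, where 98.5% of peaks were at least 13 tall and 97% at least 14. Their widths, 620 and 614 bp, were close to the whole-list median of 611 bp. Holding 2 peaks in 250 kb was common, at 19.7% of tiles of that length, and 44.3% of such tiles had a peak at least 14 tall. The summits were 35.8 kb apart, and the next peaks outside the window were 145 kb before and 217 kb after it. Amphiregulin (AREG) and epiregulin (EREG) share this window with epigen (EPGN), so the 2 peaks cannot be divided among the 3 genes here.

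Betacellulin (BTC), a ligand of both EGFR and ERBB4 that follows AREG in the gene order, had no peak in its 150 kb. This was the usual outcome, since 68.1% of tiles of that length were empty. The nearest peak was 32.8 kb before the window, from 75586959 to 75587466, with a height of 15. From it to the next summit there were 852 kb without a peak, a distance reached by 7.6% of the 9370 stretches between neighbouring summits. The median of those stretches was 137 kb, but an empty window of 150 kb can only lie in a longer one. The share counts each stretch once, whereas a set position falls more often in long stretches. It therefore does not say how unusual this locus is.

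HBEGF, which encodes the heparin-binding EGF-like growth factor, also had no summit in its 120 kb, as did 73.1% of tiles of that length. Its count depended on the exact edge. A peak from 139780055 to 139780706 with a height of 24 began 55 bp past the window's end, and its summit lay 336 bp past it. On the other side, the nearest summit was 145 kb before the window and had a height of 40. HBEGF lies between PFDN1 and SLC4A9 in RefSeq's order of protein-coding genes.

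Transforming growth factor alpha (TGFA) had the tallest ligand peaks. The peak at 70711131 to 70712067 was 28 in height, and that at 70751315 to 70751972 was 27. Both were above the list median of 24, and a height of 28 was reached by 33.2% of the list. The first was 937 bp wide, which 7.12% of the list reached or passed, and its summit lay 177 bp from the middle of its interval, a distance reached by 6.11% of peaks. In 220 kb, 2 peaks were found in 17.2% of tiles, and 18.2% of tiles had a peak at least 28 tall. Another peak of similar height, 29, lay outside the window, its summit 34.9 kb before the edge.

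NRG1, a very long gene whose product neuregulin binds ERBB3 and ERBB4, had 4 peaks in 1240 kb. That is 3.23 per Mb, close to the 3.45 per Mb of the whole list, and 47.5% of tiles as long held at least 4. The peaks from 32211006 to 32211490, from 32287542 to 32288053 and from 32572650 to 32573267 had heights of 26, 23 and 23. A peak at least 26 tall was present in 65.5% of such tiles. The remaining one, from 32084430 to 32085446, combined a low height of 14 with the greatest width of the 15, 1017 bp, which 4.85% of the list reached. Its summit was 250 bp from the middle of the interval, a distance reached by 2.42% of peaks. All 4 lay in the upper part of the window. Before them was a stretch of 1125 kb without a summit, and 4.6% of stretches were as long, each counted once whatever its length.

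ERRFI1, the inhibitor, had 2 low peaks. The peak at 8077603 to 8078021 was 17 in height, and that at 8116058 to 8116623 was 18. At least 17 was reached by 88.5% of the list and at least 18 by 83.8%. The first was the narrowest of the 15 peaks, at 419 bp. In 120 kb, 8.04% of tiles held at least 2 peaks, so the window was better filled than most, although its peaks were low, and 23.7% of tiles had a peak at least 18 tall. The summits were 38.5 kb apart. Toward lower coordinates there was no other summit for 1293 kb, which 3.49% of stretches reached, each counted once whatever its length. The megabase after the window held 12 peaks, the tallest at 47. ERRFI1 lies between PARK7 and SLC45A1.

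**Figure D2:**
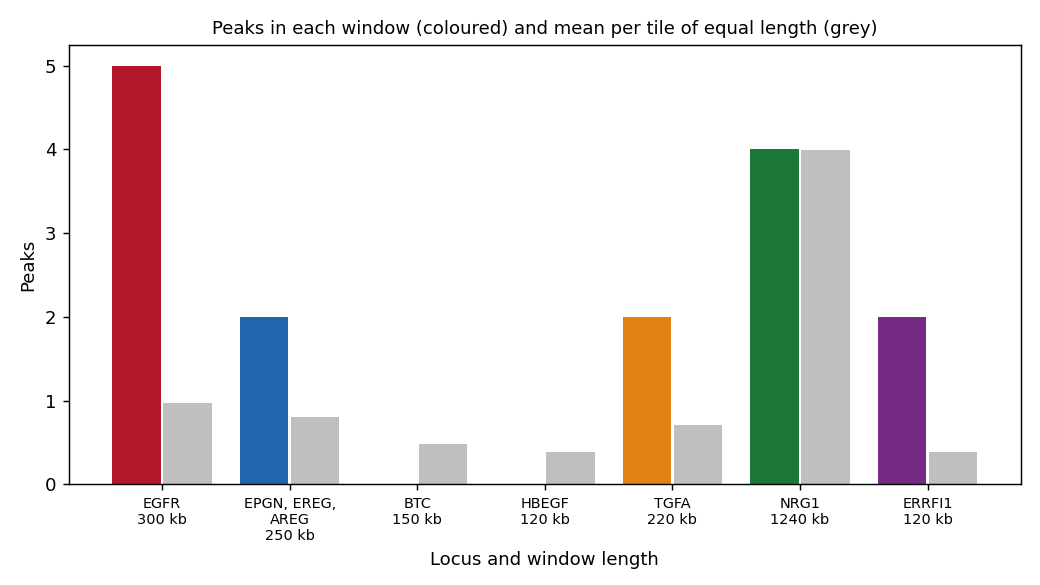
Peaks counted in each window (coloured bars, left of each pair) and the mean number in tiles of the same length along the chromosomes (grey bars), with the window length under each locus. EGFR held 5 against a mean of 0.966, ERRFI1 held 2 against 0.386, NRG1 held 4 against 3.99, and BTC and HBEGF held 0.

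Over all 7 windows, peaks were denser than in the list as a whole, and their median height was lower. There were 6.25 peaks per Mb (95% Poisson interval 3.5 to 10.3, counting error only), against 3.45 per Mb over the whole list. Such an interval takes peaks as independent of each other and is too narrow where they cluster. Its lower limit of 3.5 is close to 3.45, so it does not settle whether the windows exceed the list. Without NRG1 the windows held 9.48 per Mb (4.73 to 17), and without EGFR 4.76 per Mb (2.28 to 8.76), an interval that includes the whole-list value. The windows were set around genes, and windows around other genes were not used here as a comparison. The whole-list density takes in stretches without genes.

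The median height of the 15 peaks was 22, with quartiles of 16.5 and 26, against 24 with quartiles of 19 and 30 over all 9393. Above the list median were 5 of the 15, or 33.3% (exact 95% binomial interval 11.8 to 61.6), against 45.5% of the list. These were 2 EGFR peaks, both TGFA peaks and 1 NRG1 peak. Only the EGFR peak of 71 reached 40, so the share was 6.67% (0.169 to 31.9), against 8.67% of the list. Without EGFR the other 10 peaks ranged from 13 to 28, with a median of 20.5.

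Widths ran from 419 to 1017 bp with a median of 618 bp, against 611 bp over the list. At 900 bp or more were 2 of the 15, 1 each at TGFA and NRG1, or 13.3% (1.66 to 40.5), against 8.45% of the list. A summit within 10 kb was found for 2 of the 15, the neighbouring EGFR pair, or 13.3%, against 19.5% of the list. Each of these intervals takes in the value of the whole list.

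**Figure D3:**
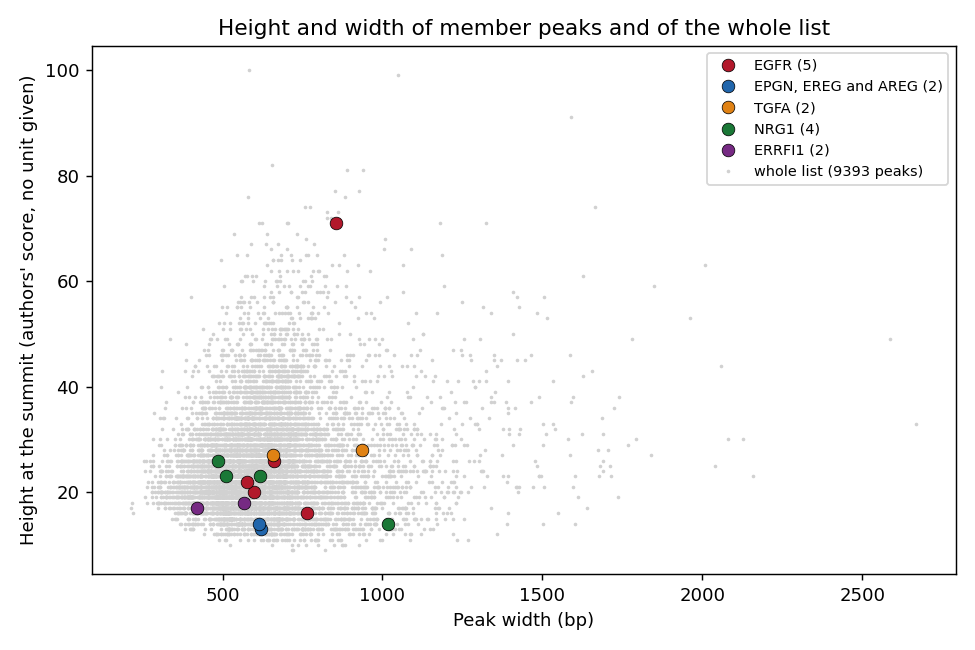
Height at the summit (authors' score, no unit given) against peak width in bp for the 15 peaks (coloured by locus) over the 9393 peaks of the list (grey points). The EGFR peak of height 71 and width 854 bp is the only coloured point above 28.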

How the data were processed

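Reads were aligned with BWA 0.6.1 and peaks called with MACS on hg19, per the submitters' processing notes. The MACS version, its threshold, duplicate filtering and the use of the input were not given in the sources used here. The score deposited by the authors for each summit, called the height, is a whole number with no stated unit or scaling. Per the file headers, a summit track and an interval track were given, and they were joined by order. Intervals are 1-based. Summits fall on multiples of 32 bp for 80.4% of peaks, so distances are resolved to about that.

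The members and lists were chosen with earlier results of these data known. The named genes are the 9 of the list. Summits were counted in the windows. Tiles of each window's length were laid from the first to the last summit of each chromosome. Whole-list density used that span less the longest gap. The tiles take in that gap, which adds empty tiles and lowers the share of tiles with peaks. Intervals are at the 95% level and cover counting error only, with peaks taken as independent of each other. Counting functions were tested on a small made-up set of peaks with known answers. Read depth is unknown, DNA copy number was not corrected, and other genes of the pathway were not assigned, as no hg19 annotation was used. Python 3.11.15, numpy 2.4.6, pandas 2.3.3, scipy 1.17.1 and matplotlib 3.10.9 were used.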

Additional observations from a re-analysis of the deposited data

How the results depend on the processing

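No paired analysis was run. Each group had a single library, the peak list comes from the ChIP library, and reads of the input were not analysed. Widening each window by 50 kb gave 18 peaks and narrowing by 20 kb gave 14, against 15. The widened windows gained 1 peak each at TGFA, BTC and HBEGF, and the narrowed ones lost the tallest EGFR peak, of height 71, which ended EGFR's lead in number (4 peaks, as at NRG1) and in height (26, against 28 at TGFA). Density was 5.81 and 6.6 per Mb under these limits, against 6.25. Restriction to peaks above the list median height left 5 peaks, a fall in number that follows by construction. Their density was 2.08 per Mb, against 1.57 per Mb for such peaks over the whole list. This was a smaller excess than with all peaks (6.25 against 3.45 per Mb), and no interval was computed for it. No member peak had another summit within 5 kb (0 of 15, which allows up to 20%), against 12.9% of the list, and 20% had one within 25 kb, against 33.5% of the list. The median height was 22.5 with widened windows and 22 after merging peaks under 200 bp apart, which joined none. Leaving out EGFR or NRG1 was chosen after seeing the data. Motifs at summits were not run, because no hg19 genome was used here.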
